A study of Mus musculus with 18 samples.

Results

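The set described here holds 10 mouse genes of glutathione metabolism and the NRF2 antioxidant response: Gstp1, Gsta4, Gstm1, Gclc, Gclm, Slc7a11, Nqo1, Hmox1, Txnrd1 and Srxn1. They were chosen by symbol, and each was read through 1 single-gene probe set, the one of highest mean level across the 18 arrays, 10 of the 19938 genes measured this way. No filter on low values was applied, so all 10 were tested. On build GRCm38.p6, from the RefSeq gene table, the transferase genes are Gstp1 at chr19:4035411-4037912, Gsta4 at chr9:78191966-78209349 and Gstm1 at chr3:108012250-108017973. Those of glutathione supply are Gclc at chr9:77754535-77794489, Gclm at chr3:122245487-122267215 and Slc7a11 at chr3:50364936-50499087. The others are Nqo1 at chr8:107388225-107403205, Hmox1 at chr8:75093618-75100593, Txnrd1 at chr10:82833951-82897724 and Srxn1 at chr2:152105524-152111376. The values are per gene, over the probes of a set, and tell nothing of single exons. Expression was measured on whole-transcript mouse arrays in 6 groups of 3. Comma-D cells, labelled normal and negative for erbB2 and for its phosphorylated form, come from the mammary epithelium of normal mice. MMTV-neu cells, labelled cancer and positive for both, come from a mouse mammary tumour model in which the mammary tumour virus promoter drives the neu (erbB2) oncogene. The other 4 groups are sorted fractions of co-cultures of both lines mixed at 1:50 or 1:1. Antibody to erbB2 and magnetic separation gave a positive and a depleted fraction. By their labels both erbB2-negative fractions are normal, the 1:1 erbB2-positive fraction is cancer with erbB2 phosphorylated, and the 1:50 erbB2-positive fraction is redirected, with erbB2 but without its phosphorylated form. Which line is the larger part at 1:50 is not stated. MMTV-neu cells were kept in a medium with more serum and without added insulin or EGF, while Comma-D cells and all co-cultures were grown in the Comma-D medium, so line and medium cannot be told apart in any comparison with MMTV-neu. Nothing in the labels says that replicates were separate cultures, so the p-values measure only the spread between these samples.

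NRF2, encoded by Nfe2l2, is a transcription factor that KEAP1 holds in the cytoplasm and marks for degradation. Oxidants and electrophiles modify KEAP1, and NRF2 then binds, with a small MAF protein, to antioxidant response elements of genes for glutathione synthesis, conjugation, quinone reduction and thiol repair. Mammary epithelial cells use these enzymes to remove peroxides and reactive metabolites, and the pathway is active in many tumours. BACH1 occupies the same elements and holds several of these genes down, Hmox1 most clearly.

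Some features of the arrays touch every value below. The log2 values were less spread in the groups nearer to MMTV-neu: the mean SD within an array was 1.98 in Comma-D, 1.91 in the 1:50 erbB2-positive fraction, 1.66 in the 1:1 erbB2-positive fraction and 1.53 in MMTV-neu. Genes with high levels in Comma-D were mostly lower in MMTV-neu. Among the genes of highest Comma-D level, the top of 4 bins of equal size, which holds 7 of the 10, the median difference was -1.36 log2 units and 83.7% of genes were called lower. Nqo1, Srxn1 and Slc7a11 lie in the bin below, where the median was 0.02 and 34.5% were called lower. Replicate 1 of the 1:1 erbB2-negative fraction stood apart, being the lowest of its group for 9 of the 10 genes. It lay 0.449 log2 units below its group on average over them. Counts of calls with that group are therefore mostly given with and without it. Single differences, list medians and positions include it unless stated. Of the cell type markers, 6 to 7 of 8 luminal and 7 to 8 of 8 basal ones lay above the array median in every group. The counts were 0 to 2 of 8 for leukocyte, 0 to 1 of 6 for endothelial and 0 to 2 of 6 for adipocyte markers. For fibroblast markers they were 5 to 6 of 8, equal to the luminal count in Comma-D. The basal list was lower in MMTV-neu, with a mean level of 7.59 to 7.71 against 9.53 to 9.55 in Comma-D, although Myh11 was higher (7.41 against 5.97). The mean of the fibroblast list was lower too, at 6.815 to 6.875 against 7.829 to 7.887, but its genes were divided. Col1a2 (7.98 against 6.54), Col3a1 (7.79 against 7.37), Fap (5.34 against 4.83) and Lum (4.73 against 4.43) were higher. Col1a1, Pdgfra, Pdgfrb and Dcn were lower. The luminal list read 8.137 to 8.294 against 8.031 to 8.182, with Epcam lower (5.88 against 9.53) and Krt8 higher (11.34 against 7.41). Whether the share of basal or other cells plays a part in the differences below was not tested.

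Promoter sequences from RefSeq, on build GRCm38.p6 and running from 250 bases before to 50 bases after an annotated start, were at hand for 7 of the 10 genes in 10 windows. They are Gstp1, Gstm1, Nqo1, Gclm, Txnrd1, Srxn1 and Slc7a11. Each was searched on both strands for the core of the antioxidant response element, TGACNNNGC, and for the related AP-1 core, TGANTCA. A core of the first kind lay in 3 windows, of Gclm, Txnrd1 and Srxn1, and in 12.4% of all 32851 windows in the table. The AP-1 core lay in 2, of Gstp1 and Srxn1, and in 7.81% of all windows, and no match of one motif overlapped a match of the other. Looser forms of either core were not searched, so a window without a match can still hold one, also at the AP-1 matches. Gstm1, Nqo1 and Slc7a11 held neither in these windows, which says only that these letters are absent there. The stretches with matches are shown because their genes include the largest fall (Gstp1) and 3 genes of different roles that fell with it; capitals mark the matched cores, and each stretch reads 5′ to 3′ on the strand of its gene.
Gstp1: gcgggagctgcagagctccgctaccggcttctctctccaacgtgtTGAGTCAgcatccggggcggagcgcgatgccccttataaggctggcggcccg
Gclm: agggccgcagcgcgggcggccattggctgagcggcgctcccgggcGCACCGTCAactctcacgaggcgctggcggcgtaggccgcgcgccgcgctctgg
Txnrd1: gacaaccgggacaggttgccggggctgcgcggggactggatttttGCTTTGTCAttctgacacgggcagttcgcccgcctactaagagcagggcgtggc
Srxn1: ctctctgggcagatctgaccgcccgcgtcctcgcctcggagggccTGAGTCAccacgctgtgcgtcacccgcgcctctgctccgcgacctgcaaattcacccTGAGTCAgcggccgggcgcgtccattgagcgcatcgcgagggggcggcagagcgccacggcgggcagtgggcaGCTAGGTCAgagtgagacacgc
The Gstp1 stretch lies at chr19:4037935-4038031 on the minus strand, and its AP-1 core begins 74 bases before the start. The Gclm stretch is chr3:122245378-122245476 on the plus strand, with the core on the opposite strand and its first letter 134 bases before the start. Txnrd1 has 3 annotated windows, and the match lies in the second, at chr10:82859069-82859167 on the plus strand, 92 bases before that start. In Srxn1, at chr2:152105377-152105573 on the plus strand, AP-1 cores begin 102 and 45 bases before the start and the antioxidant response core begins at base 29 after it.

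Levels differed among the 6 groups for 9 of the 10 genes in a moderated F test (adjusted p up to 0.00467 for those called), all but Nqo1 (adjusted p = 0.136), where 90.4% of all genes were called. The count was 10 with the replicate number as a block, with array weights and without 1:1 erbB2-negative replicate 1 or 3, and 8 after quantile normalization. Comma-D or the 1:50 erbB2-negative fraction was highest for every gene. MMTV-neu was lowest for Gstp1, Gsta4, Gstm1, Hmox1, Gclm and Txnrd1, and an erbB2-positive fraction for the others. Gstp1, Gsta4, Hmox1 and Txnrd1 shared 1 order from high to low: Comma-D, 1:50 erbB2-negative, 1:50 erbB2-positive, 1:1 erbB2-negative, 1:1 erbB2-positive, MMTV-neu. Gclm began with the 1:50 erbB2-negative fraction and otherwise followed it. The first 3 steps of this order were called for none of the 10 genes, the step between the 1:1 fractions was a called fall for 7, and the last step a called fall for 5 and a called rise for 1, Slc7a11. Below, a difference is called at an adjusted p under 0.05 over all genes, and levels and differences are in log2 units.

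**Figure D1:**
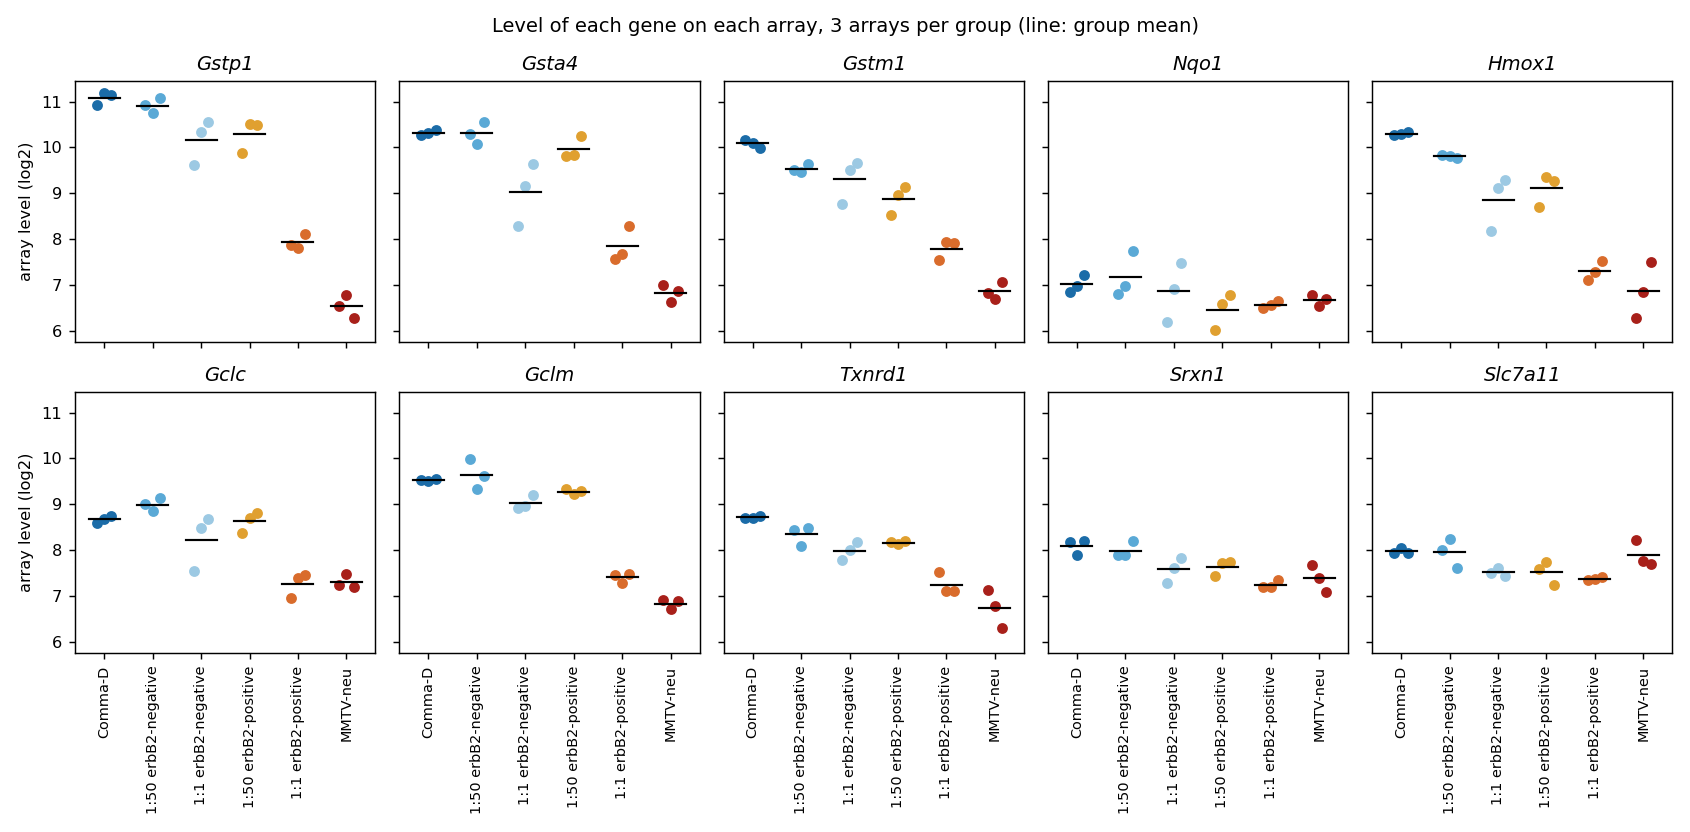
Level of each of the 10 genes on each array in log2 units (vertical axis) for the 6 groups of 3 arrays, with Comma-D at the left, MMTV-neu at the right and a line at each group mean. Gstp1 goes from 11.09 in Comma-D to 6.53 in MMTV-neu, while Nqo1 lies between 6.01 and 7.73 on all arrays.

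Gstp1, Gsta4 and Gstm1 encode cytosolic glutathione transferases of the pi, alpha and mu classes, which join glutathione to electrophiles. Gsta4 is known for clearing 4-hydroxynonenal, a product of lipid peroxidation. All 3 were high in Comma-D and low in MMTV-neu, and the 1:50 erbB2-positive fraction read much closer to Comma-D than the 1:1 erbB2-positive fraction did.

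Gstp1 read 10.92, 11.19 and 11.15 in Comma-D and 6.53, 6.78 and 6.28 in MMTV-neu, in order of replicate. It read 10.91, 10.74 and 11.07 in the 1:50 and 9.61, 10.33 and 10.55 in the 1:1 erbB2-negative fraction. The erbB2-positive fractions gave 9.88, 10.51 and 10.49 at 1:50 and 7.87, 7.80 and 8.10 at 1:1. The arrays of the 1:1 erbB2-positive fraction lay below all those of Comma-D and the other fractions and above all those of MMTV-neu. The fall from Comma-D to MMTV-neu was 4.56 log2 units (SE 0.21, 23.6-fold, adjusted p = 2.61e-11), the 67th largest fall of all genes. Gstp1 lay under the array median on all 3 MMTV-neu arrays, where signal is nearer to background and a fall can be understated. In order of level the 1:50 erbB2-negative, 1:50 erbB2-positive and 1:1 erbB2-negative fractions follow Comma-D, and none of these neighbours differed by a call: the steps were -0.18 (95% interval -0.63 to 0.27), -0.62 (-1.06 to -0.17) and, from the 1:1 erbB2-negative to the 1:50 erbB2-positive fraction, 0.13 (-0.32 to 0.58). The next steps down were called: -2.24 from the 1:1 erbB2-negative to the 1:1 erbB2-positive fraction (adjusted p = 4.19e-06) and a further fall to MMTV-neu, which lay 1.40 lower still (adjusted p = 0.000455). Gstp1 also appears in 2 probe sets that its near copy Gstp2 shares, where the Comma-D means were 8.74 and 8.96 and the MMTV-neu means 7.07 and 6.98. There the gap between the lines was smaller, and the 1:1 erbB2-positive fraction (7.10 and 7.14) overlapped MMTV-neu in both sets. The 1:50 erbB2-positive means (8.03 and 8.17) lay just below the 1:1 erbB2-negative ones (8.05 and 8.24), unlike the order above. The shared sets were not tested.

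Gsta4 read 10.27, 10.32 and 10.38 in Comma-D and 7.0, 6.62 and 6.87 in MMTV-neu, with no overlap. The 1:50 fractions read 10.29, 10.07 and 10.55 without and 9.81, 9.83 and 10.24 with erbB2. The 1:1 fractions read 8.28, 9.15 and 9.64 without and 7.56, 7.68 and 8.28 with erbB2, and these 2 groups overlapped at 8.28. Gsta4 thus lay near its Comma-D level in both 1:50 fractions. Its fall from Comma-D to MMTV-neu was 3.49 (SE 0.26, 11.3-fold, adjusted p = 5.97e-09), and the 1:50 erbB2-positive fraction differed from Comma-D by -0.36 (95% interval -0.91 to 0.18, adjusted p = 0.427). It was the member that differed most between the erbB2-negative fractions, by 1.28 (SE 0.26, adjusted p = 0.00543), or 0.91 (adjusted p = 0.0214) without replicate 1 of the 1:1 fraction.

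Gstm1 read 10.17, 10.09 and 9.99 in Comma-D and 6.82, 6.69 and 7.06 in MMTV-neu. The erbB2-negative fractions read 9.50, 9.47 and 9.63 at 1:50 and 8.77, 9.51 and 9.66 at 1:1, and the erbB2-positive fractions 8.53, 8.96 and 9.14 and 7.54, 7.93 and 7.91. Unlike the other 2 transferases, its order put the 1:50 erbB2-positive fraction below the 1:1 erbB2-negative one, although that step of -0.44 was not called (adjusted p = 0.347). The fall in MMTV-neu was 3.23 (SE 0.20, adjusted p = 5.84e-10). Gstm1 showed the firmest difference of the set between the 1:50 erbB2-positive fraction and Comma-D, a fall of 1.21 (SE 0.20, 2.31-fold, adjusted p = 0.00124), and this call held whichever array was left out.

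Gclc and Gclm encode the catalytic and modifier subunits of glutamate cysteine ligase, which makes the first and rate-limiting step of glutathione synthesis. Both were lower in MMTV-neu and in the 1:1 erbB2-positive fraction, the modifier by more than the catalytic subunit. Gclm read 9.53, 9.50 and 9.55 in Comma-D, 9.33, 9.22 and 9.29 in the 1:50 erbB2-positive fraction, 7.46, 7.28 and 7.47 in the 1:1 erbB2-positive fraction and 6.90, 6.72 and 6.88 in MMTV-neu. Its erbB2-negative fractions read 9.99, 9.33 and 9.61 at 1:50 and 8.92, 8.95 and 9.21 at 1:1. MMTV-neu and the 1:1 erbB2-positive fraction lay at 7.47 and below, and every array of the other 4 groups at 8.92 and above. The fall in MMTV-neu was 2.69 (SE 0.13, 6.47-fold, adjusted p = 5.01e-11). The 1:50 erbB2-positive fraction exceeded the 1:1 fraction by 1.87 (SE 0.13, adjusted p = 1.92e-07), and differed from Comma-D by -0.25 (95% interval -0.53 to 0.03), which was not called.

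Gclc read 8.59, 8.68 and 8.74 in Comma-D, 8.36, 8.70 and 8.81 in the 1:50 erbB2-positive fraction, 6.96, 7.40 and 7.45 in the 1:1 erbB2-positive fraction and 7.25, 7.47 and 7.19 in MMTV-neu. In the erbB2-negative fractions it read 9.0, 8.86 and 9.13 at 1:50, above every Comma-D array, and 7.54, 8.47 and 8.68 at 1:1. The 1:1 erbB2-positive fraction and MMTV-neu overlapped, and their difference was -0.03 (95% interval -0.50 to 0.43). The fall in MMTV-neu against Comma-D was 1.37 (SE 0.22, adjusted p = 1.99e-05), which is about the median of the bin of high genes it belongs to: 49.9% of that bin fell as far or farther, against 1.34% for Gstp1 and 14.2% for Gclm. The higher mean of the 1:50 erbB2-negative fraction over Comma-D, by 0.32, was not called (adjusted p = 0.875).

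Slc7a11 is the transport subunit of the cystine and glutamate exchanger, which brings in the cystine that glutathione synthesis needs. It did not follow the transferases. It read 7.95, 8.05 and 7.93 in Comma-D and 8.23, 7.76 and 7.70 in MMTV-neu, which overlap. The 1:50 and 1:1 erbB2-negative fractions read 7.99, 8.25 and 7.62 and 7.50, 7.60 and 7.44, and the erbB2-positive fractions 7.59, 7.74 and 7.23 and 7.34, 7.37 and 7.41. Both unmixed lines thus lay above all arrays of the 1:1 erbB2-positive fraction. The difference between the lines was -0.08 (95% interval -0.42 to 0.26, adjusted p = 0.642), and its sign turned with the scaling, to 0.48 (adjusted p = 0.0203) after quantile normalization and 1.67 with arrays centred on reference genes. The 1:1 erbB2-positive fraction was lower than Comma-D by 0.60 (SE 0.16, adjusted p = 0.00276) and lower than MMTV-neu by 0.52 (SE 0.16, adjusted p = 0.0347). The first was not called after quantile normalization (-0.24, adjusted p = 0.222), and the second was lost, with adjusted p up to 0.133, without MMTV-neu replicate 1 or any 1 array of the 1:1 erbB2-positive fraction.

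Hmox1 encodes heme oxygenase 1, which breaks down heme to biliverdin, iron and carbon monoxide, and Nqo1 a quinone reductase often used as a readout of NRF2. The pair parted here: Hmox1 was much lower in MMTV-neu, and Nqo1 was called in no comparison. Hmox1 read 10.26, 10.29 and 10.34 in Comma-D and 6.27, 6.85 and 7.49 in MMTV-neu, the widest spread of any member within MMTV-neu. Its erbB2-negative fractions read 9.84, 9.82 and 9.77 at 1:50 and 8.18, 9.10 and 9.28 at 1:1, and its erbB2-positive fractions 8.70, 9.36 and 9.26 and 7.10, 7.29 and 7.53. All Comma-D arrays lay above all others, and the 1:1 erbB2-positive fraction overlapped MMTV-neu. The fall in MMTV-neu was 3.43 (SE 0.28, 10.8-fold, adjusted p = 1.47e-08), while the 1:1 erbB2-positive fraction differed from MMTV-neu by 0.43 (95% interval -0.15 to 1.02), which was not called.

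Nqo1 lay between 6.01 and 7.73 on all 18 arrays. Its group means were 7.01 ± 0.18 in Comma-D and 6.67 ± 0.12 in MMTV-neu (SD, n = 3), 7.17 ± 0.49 (1:50) and 6.85 ± 0.64 (1:1) without erbB2, and 6.46 ± 0.40 (1:50) and 6.57 ± 0.07 (1:1) with it. All Comma-D arrays lay above those of MMTV-neu and of both erbB2-positive fractions, and overlapped those of both erbB2-negative fractions. Between the lines it differed by -0.34 (95% interval -0.91 to 0.23, adjusted p = 0.243). It was under the array median on 2 of 3 MMTV-neu arrays and all 3 of the 1:1 erbB2-positive fraction, where low levels leave little room for a fall to be seen. Without replicate 1 of the 1:1 erbB2-negative fraction its difference between the 1:1 fractions was called (-0.62, adjusted p = 0.0331).

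Txnrd1, the cytosolic thioredoxin reductase, passes electrons from NADPH to thioredoxin, and Srxn1, sulfiredoxin, repairs overoxidised peroxiredoxins. Both were lower in MMTV-neu and the 1:1 erbB2-positive fraction than in Comma-D, Txnrd1 by more. Txnrd1 read 8.70, 8.70 and 8.75 in Comma-D, 8.17, 8.13 and 8.19 in the 1:50 erbB2-positive fraction, 7.52, 7.12 and 7.10 in the 1:1 erbB2-positive fraction and 7.12, 6.78 and 6.31 in MMTV-neu. The erbB2-negative fractions had means of 8.34 ± 0.21 at 1:50 and 7.98 ± 0.19 at 1:1. The fall in MMTV-neu was 1.98 (SE 0.17, adjusted p = 3.09e-08), and since 2 of 3 MMTV-neu arrays lay under the array median it can be understated, as for Gstp1. The 1:50 erbB2-positive arrays lay below all Comma-D arrays, but that difference of -0.56 was not called (SE 0.17, adjusted p = 0.0659).

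Srxn1 had means of 8.09 ± 0.16 in Comma-D, 7.99 ± 0.18 (1:50) and 7.58 ± 0.27 (1:1) without erbB2, 7.64 ± 0.17 (1:50) and 7.25 ± 0.09 (1:1) with it and 7.38 ± 0.30 in MMTV-neu (SD, n = 3). Its whole range of group means was 0.84, against 4.56 for Gstp1. The fall in MMTV-neu was 0.70 (SE 0.16, adjusted p = 0.000604). It was not called after quantile normalization (-0.34, adjusted p = 0.083) and turned to 1.05 with arrays centred on reference genes. The arrays of MMTV-neu and the 1:1 erbB2-positive fraction overlapped.

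Between the unmixed lines, 8 of the 10 genes were lower in MMTV-neu and none was higher. The background is 30.4% of all genes called lower and 56.4% called higher. The called differences ran from -0.70 for Srxn1 to -4.56 for Gstp1, with Nqo1 and Slc7a11 not called. The median difference was -2.34 over the 10 genes and 0.40 over all genes. Leaving out any 1 array of either line changed none of these 8 calls. The 9 measured reference genes were themselves lower in MMTV-neu, with a mean of 9.07 against 10.82 in Comma-D. Their mean was 10.58 in the 1:50 and 9.78 in the 1:1 erbB2-positive fraction, and 10.80 and 10.48 in the erbB2-negative ones. Centring the arrays on them, which moves the median of all genes by 1.75, left 5 members lower and made 4 higher, namely Gclc, Srxn1, Nqo1 and Slc7a11. Gstp1, Gsta4, Gstm1, Hmox1 and Gclm stayed lower, and Txnrd1 was not called when centred (-0.23, adjusted p = 0.301).

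In the 1:50 erbB2-positive fraction, which the labels call redirected, 7 of the 10 genes were higher than in MMTV-neu: Gstp1 by 3.76 (SE 0.21, 13.6-fold), Gsta4 by 3.13, Gclm by 2.45, Hmox1 by 2.23, Gstm1 by 2.02, Txnrd1 by 1.43 and Gclc by 1.32. Over all genes 25.8% were called higher. The median difference was 1.72 over the 10 genes, against 1.05 in the bin of high genes, which holds 7 of them, and -0.09 in the bin below. Slc7a11 was lower by 0.37 (adjusted p = 0.0389), as were 57.6% of all genes, and that call was lost without MMTV-neu replicate 1 or 1:50 erbB2-positive replicate 3 (adjusted p up to 0.229). Srxn1 was called higher without MMTV-neu replicate 1 (0.41, adjusted p = 0.03). Centring on the reference genes turned Gclc and Txnrd1 to -0.19 and -0.08, while Gstp1, Gsta4, Gstm1, Hmox1 and Gclm stayed higher. Srxn1 turned to -1.25 and was called lower, as were Nqo1 (-1.72) and Slc7a11 (-1.89).

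Against Comma-D, the same fraction was lower for Gstp1 by 0.80 (adjusted p = 0.0363), Gstm1 by 1.21 and Hmox1 by 1.19 (adjusted p = 0.0167), 3 of 10 where 4.54% of all genes were called lower. In 9 of the 10 genes the arrays of the groups did not overlap, with every array of the fraction below Comma-D, against 37.5% of all genes not overlapping in either direction. The Gstp1 and Hmox1 calls were lost without any 1 Comma-D array or without 1:50 erbB2-positive replicate 1, and that of Gstp1 also without replicate 3, with adjusted p up to 0.22 and 0.101. Centring and quantile normalization also ended both, Gstp1 at adjusted p = 0.184 and 0.0936 and Hmox1 at 0.0605 and 0.13, and left Gstm1 called. In the bin of high genes 10.4% were called lower. Gclc, whose arrays overlapped, differed by -0.05 (95% interval -0.51 to 0.42).

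**Figure D2:**
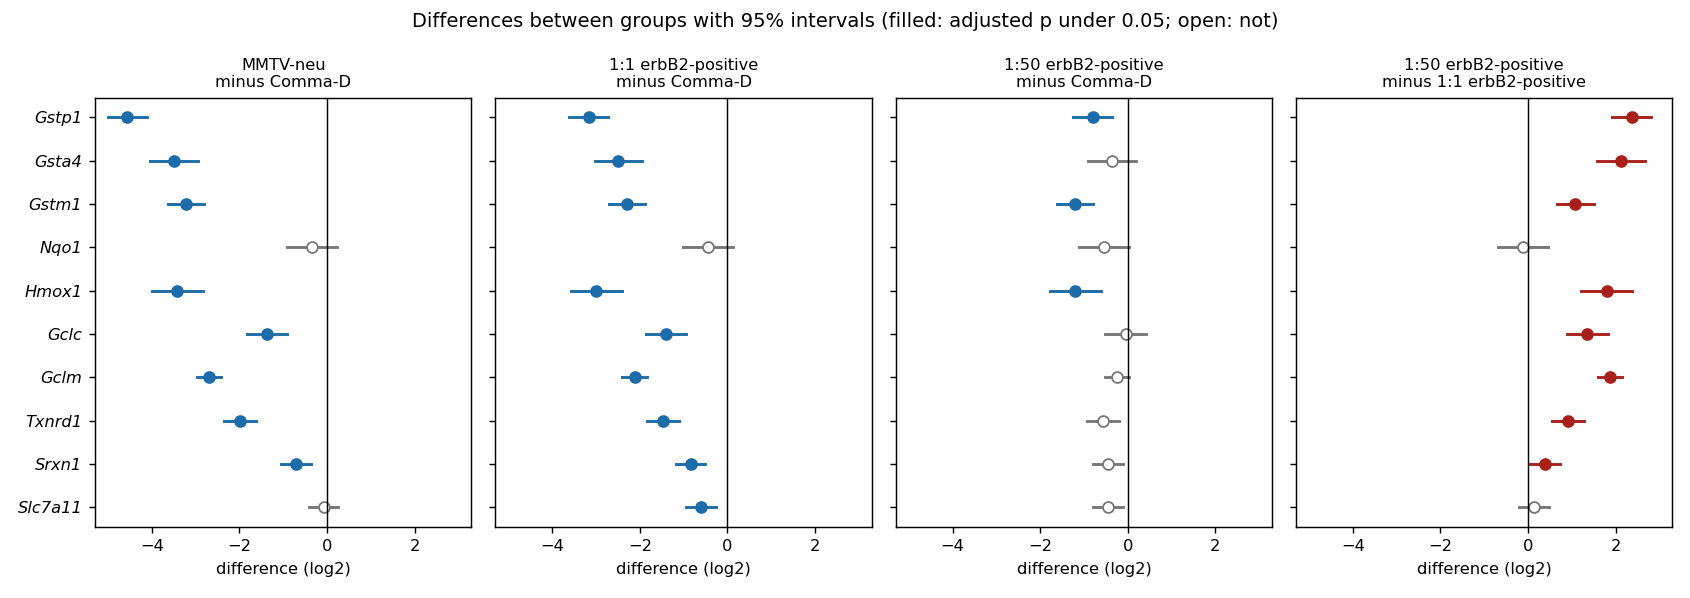
Differences between groups for the 10 genes in log2 units (horizontal axis) with 95% intervals from the fit of 18 arrays, in 4 comparisons; filled points passed an adjusted p of 0.05 and open points did not. Gstp1 lies at -4.56 in MMTV-neu and at -0.80 in the 1:50 erbB2-positive fraction, both against Comma-D.

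The 1:1 erbB2-positive fraction, labelled cancer, was lower than Comma-D for 9 of the 10 genes, all but Nqo1, where 32.5% of all genes were called lower. In the bin of high genes, which holds 7 of the 10, that share was 85.3%, and in the bin below 39.4%. The differences ran from -0.60 for Slc7a11 to -3.16 for Gstp1 (SE 0.21). With arrays centred on reference genes 5 genes stayed lower and Nqo1 (0.59) was called higher. Gclc (-0.37, adjusted p = 0.0589) and Txnrd1 (-0.44, adjusted p = 0.0613) then lost their calls, and Srxn1 (0.19) and Slc7a11 (0.44) turned, neither called. The 1:1 erbB2-positive fraction was nonetheless above MMTV-neu for 5 genes, Gstp1 by 1.40, Gsta4 by 1.01, Gstm1 by 0.94, Gclm by 0.57 and Txnrd1 by 0.51, where 4.21% of all genes were called higher. Slc7a11 was lower, as were 14.1% of all genes. The Gsta4 call was lost without 1:1 erbB2-positive replicate 3 (0.78, adjusted p = 0.0924), and that of Txnrd1 without any 1 array of this fraction or without MMTV-neu replicate 2 or 3 (adjusted p up to 0.197). Centring on the reference genes left Gstp1 alone higher (0.68): Gsta4 (0.29, adjusted p = 0.174) and Gstm1 (0.22, adjusted p = 0.253) lost their calls, Gclm and Txnrd1 turned to -0.14 and -0.20, and Nqo1, Gclc, Srxn1 and Slc7a11 were called lower. Without 1:1 erbB2-positive replicate 3 only 3 of the 6 calls were left.

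The erbB2-positive fraction differed by much between the mixing ratios. At 1:50 it exceeded 1:1 for 8 of the 10 genes, all but Nqo1 and Slc7a11, with 27.4% of all genes called higher. The median difference was 0.92 in the bin of high genes, which holds 7 of the 10, and 0.04 in the bin below. Gstp1 differed by 2.37 (SE 0.21, 5.16-fold), Gsta4 by 2.12, Gclm by 1.87, Hmox1 by 1.80, Gclc by 1.36, Gstm1 by 1.08 and Txnrd1 by 0.91. Srxn1, at 0.39 (adjusted p = 0.0364), lost its call without 1:50 erbB2-positive replicate 2 or 3 or 1:1 erbB2-positive replicate 1 or 2 (adjusted p up to 0.114) or after quantile normalization (adjusted p = 0.267). Centring on the reference genes left 5 higher and 3 lower: Gstm1 (0.29, adjusted p = 0.148) and Txnrd1 (0.12, adjusted p = 0.608) lost their calls, and Srxn1 (-0.40), Nqo1 (-0.90) and Slc7a11 (-0.65) were lower.

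The 1:50 erbB2-negative fraction was called different from Comma-D for 0 of the 10 genes, where 1.68% of all genes were called. At an unadjusted p under 0.05, Gstm1 (-0.55) and Txnrd1 (-0.38) passed, with 8.78% of all genes. The 1:1 erbB2-negative fraction, also labelled normal, was lower than Comma-D for 8 of the 10, all but Nqo1 and Gclc, against 20.9% of all genes and 53.5% of the bin of high genes. Hmox1 fell by 1.44 (SE 0.28), Gsta4 by 1.30 and Gstp1 by 0.92 (adjusted p = 0.00476). Without its replicate 1, 5 calls were left, with Gclm at adjusted p = 0.0503, Srxn1 at 0.141 and Slc7a11 at 0.0985. Srxn1 also lost its call without Comma-D replicate 1 or 3, and Slc7a11 without any 1 Comma-D array or its own replicate 3. Gclc was called without replicate 3 of the 1:1 erbB2-negative fraction (-0.66, adjusted p = 0.0212). Quantile normalization and centring each left 3.

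Between the erbB2-negative fractions, 6 genes were higher at 1:50: Gsta4 by 1.28, Hmox1 by 0.96, Gclc by 0.76, Gstp1 by 0.74, Gclm by 0.62 and Slc7a11 by 0.44, with 21.4% of all genes called higher. The median difference over the 10 genes, 0.53, was close to the 0.50 of the bin of high genes, which holds 7 of them. It was 0.20 in the bin below. Equal replicate numbers deviated together in this pair of groups, and with the replicate number as a block (12 co-culture arrays fitted) 8 were called, adding Txnrd1 (adjusted p = 0.0497) and Srxn1 (adjusted p = 0.00752). Without replicate 1 of the 1:1 fraction Gsta4 and Gclm (adjusted p = 0.0358) were left, and without 1:50 erbB2-negative replicate 1 or 3 it was 2 or 3 calls, with Gstp1, Hmox1 and Gclc lost in both. Srxn1 was called without replicate 3 of the 1:1 fraction (0.54, adjusted p = 0.0192). Hmox1 also lost its call without 1:50 erbB2-negative replicate 2, and Slc7a11 without that array or 1:1 erbB2-negative replicate 2 or 3. Quantile normalization and centring each left 1 call, and a fit of these 6 arrays alone 0, so these calls depend on those settings.

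Within the 1:50 co-culture the erbB2-positive fraction was below the erbB2-negative one in the mean of all 10 genes, but 0 were called. Over all genes 0.01% were called. At an unadjusted p under 0.05, 7 of the 10 passed, with 13.4% of all genes, and the arrays did not overlap in 7, with 29.1% of all genes. The differences ran from -0.71 for Nqo1 (95% interval -1.28 to -0.14) to -0.18 for Txnrd1 (-0.54 to 0.18). Within the 1:1 co-culture 7 genes were lower in the erbB2-positive fraction, with 21% of all genes and 66.6% of the bin of high genes called lower. Gstp1 fell by 2.24 (SE 0.21), the 5th largest fall of all genes, Gclm by 1.62, Hmox1 by 1.55 and Gstm1 by 1.52. Without replicate 1 of the 1:1 erbB2-negative fraction 9 were called, Nqo1 and Srxn1 (adjusted p = 0.0159) added, and with the replicate block Srxn1 was called too (adjusted p = 0.0105). Centring on reference genes left 5 lower and made Slc7a11 (0.56) higher, while Gclc (-0.27) and Txnrd1 (-0.04) lost their calls. The 1:50 erbB2-positive and 1:1 erbB2-negative fractions, compared because they neighbour each other in the order of most genes, differed by a call in 0 of the 10, where 1.5% of all genes were called. Gsta4 (0.94) and Gstm1 passed at an unadjusted p under 0.05, with 13.3% of all genes, and Gsta4 was called with the replicate block (adjusted p = 0.027) and without 1:1 erbB2-negative replicate 3 (1.25, adjusted p = 0.0158).

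The difference between the ratios varied with the fraction for 2 genes. This interaction is the 1:50 minus 1:1 difference in the erbB2-positive fractions less that in the erbB2-negative fractions. For Gstp1 it was 1.62 (SE 0.30, adjusted p = 0.0103), from 2.37 and 0.74, and for Gclm 1.25 (SE 0.19, adjusted p = 0.00359), from 1.87 and 0.62. Over all genes 2.45% were called with a positive interaction. Gstm1, at 0.86 (adjusted p = 0.099), was called with the same block (adjusted p = 0.0213), and also without 1:50 erbB2-positive replicate 1 (adjusted p = 0.0352). Without 1:1 erbB2-negative replicate 1 there were 6 calls, with Gsta4 (1.21), Gstm1 (1.13), Hmox1 (1.18) and Gclc (0.94) added. Centring on reference genes left 0, and with those 12 arrays fitted alone, without a block, Gstp1 had an adjusted p of 0.058.

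Scaling moves the balance of calls over all genes, against which these counts are read. The higher share of all calls went from 65% to 93% with arrays centred on reference genes between the lines, from 58.5% to 87% for the 1:1 erbB2-positive fraction against Comma-D, and from 20.5% to 41.8% for the 1:50 erbB2-positive fraction against Comma-D. For the 1:1 erbB2-negative fraction against Comma-D it went from 41.6% to 84.5% (57.3% after quantile normalization). Against MMTV-neu it went from 30.9% to 6.03% for the 1:50 and from 23% to 1.67% (36.3% after quantile normalization) for the 1:1 erbB2-positive fraction. Between ratios it went from 38.4% to 11.5% in the erbB2-positive fractions and from 70.7% to 22.1% (48.5% after quantile normalization) in the erbB2-negative ones. Within the 1:1 co-culture it went from 62.7% to 92.2%, and for the interaction from 89.1% to 100% (70.9% after quantile normalization).

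The fractions were then placed between the lines on the linear scale, with the Comma-D mean at 0% and the MMTV-neu mean at 100%, for the 7 genes that fell by at least 1 log2 unit between the lines. A level in a sorted fraction is a bulk value, so fewer cells of a line and less RNA of a gene per cell cannot be told apart, and the share of each line's cells in a fraction was not measured. The 1:1 erbB2-positive fraction lay at 85.9% for Txnrd1 to 101% for Gclc, with a median of 92.7% over all 3707 genes that fell as much. The 1:50 erbB2-positive fraction lay at 3.83% for Gclc, 18.6% for Gclm and 23.6% for Gsta4, 43.3% for both Gstp1 and Txnrd1, 61.5% for Hmox1 and 62.9% for Gstm1. The median over all such genes was 29.2%, with an interquartile range of 16.6% to 42.9%. Gclc ranged from -16.4% to 31.5% over the 3 arrays and Gstm1 from 54.0% to 74.0%, so these 2 did not overlap. How even a fraction looks depends on the scale: on the log2 scale the 1:50 erbB2-positive fraction ran from 3.303% for Gclc to 37.4% for Gstm1, and the 1:1 erbB2-positive fraction over a like width, from 69.4% for Gstp1 to 102.5% for Gclc. The 1:50 erbB2-negative fraction ran from -41.6% for Gclc to 35.6% for Gstm1, and the 1:1 erbB2-negative fraction from 34.2% for Gclm to 68.0% for Hmox1.

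**Figure D3:**
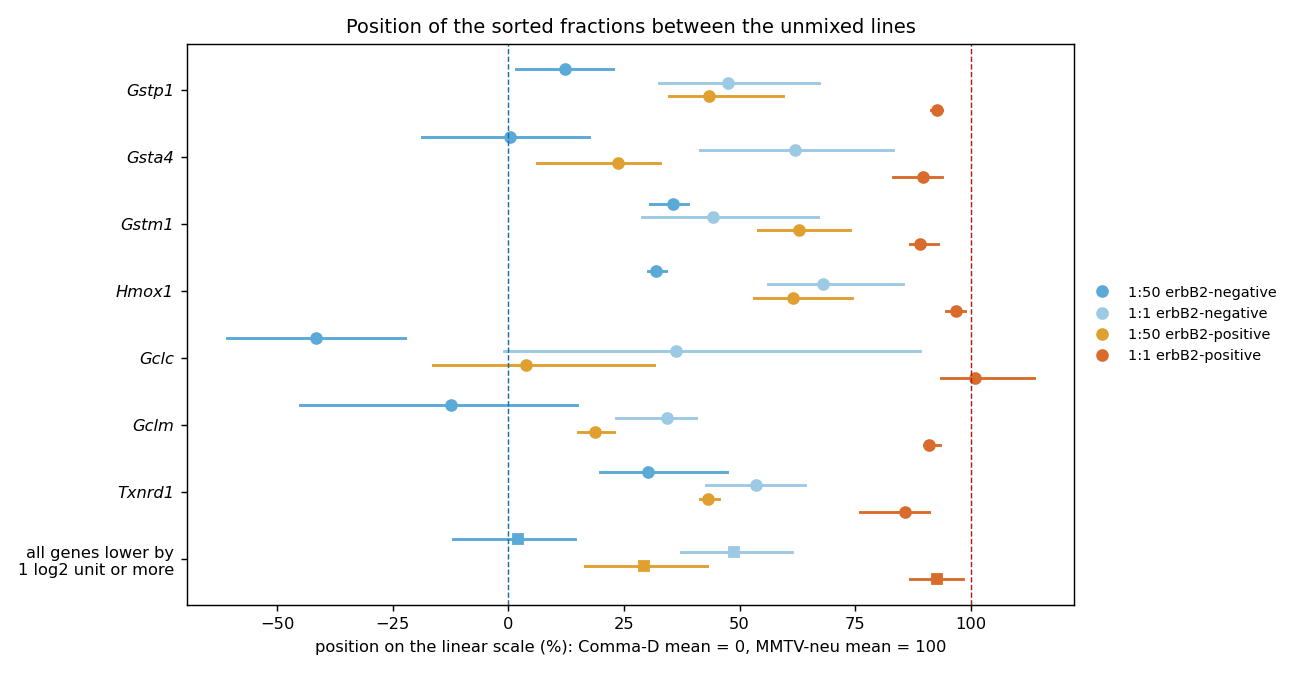
Position of the 4 sorted fractions between Comma-D (0%) and MMTV-neu (100%) on the linear scale (horizontal axis) for 7 genes, as the mean of 3 arrays with a line from the lowest to the highest array; squares give the median of 3707 genes with lines over their interquartile range. The 1:50 erbB2-positive fraction spreads from 3.83% for Gclc to 62.9% for Gstm1, and the 1:1 erbB2-positive fraction from 85.9% to 101%; on the log2 scale, not drawn, both spread over a like width.

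The rest of the pathway was read through lists of related genes, of which 110 of 118 were measured. The counts between the lines stand against 30.4% of all genes called lower and 56.4% called higher. Nfe2l2, which encodes NRF2, was at 9.77 in Comma-D, 9.09 in the 1:50 erbB2-positive fraction, 7.26 in the 1:1 erbB2-positive fraction and 6.74 in MMTV-neu. It fell by 3.03 between the lines (SE 0.16, adjusted p = 1.17e-10), and its difference between the ratios varied with the fraction as well (interaction 1.06, adjusted p = 0.0209). Keap1 and Bach1 are named for their roles in the background above, after their values were seen. Keap1, which encodes the inhibitor of NRF2, rose by 0.44 (adjusted p = 0.000772), where the median of all genes was 0.40. Of NRF2 and its partners 6 of 8 fell and 2 rose in MMTV-neu, with Bach1 down by 0.49 and a median of -0.69.

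Of 24 other NRF2 target enzymes, 17 fell, 5 rose and 2 were not called, with a median of -1.74 (0.40 over all genes). The largest falls were in Idh1, an NADPH source (-4.31), Sqstm1, an autophagy receptor that binds KEAP1 (-4.19), the ferritin light chain Ftl1 (-4.05), the peroxiredoxin Prdx1 (-3.27) and thioredoxin, Txn1 (-2.67). Of 17 other glutathione transferases, 9 fell and 4 rose, with a median of -0.49. Mgst1, a microsomal transferase, fell by 3.84 and Gsto1 by 2.99. Of 13 genes of glutathione supply and turnover, 8 fell and 4 rose: Slc3a2, the heavy chain that carries the SLC7A11 protein to the membrane, fell by 4.34 (SE 0.16), although Slc7a11 itself was not called, Cth, which makes cysteine from cystathionine, fell by 2.37, and Ggt7 rose by 2.03. Of 21 genes of peroxide and superoxide removal 12 fell and 6 rose, with Prdx2 at -6.36, the glutathione peroxidase Gpx1 at -4.25 and the related Gpx8 at -3.80. ATF4 also drives Slc7a11. In a list of 12 genes, Atf4 itself and genes listed as its targets, 11 fell, with a median of -1.005, among them Asns (-3.99). Whether ATF4 plays a part was not tested.

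Immediate early and heat shock genes, 15 of them measured, which respond to how cells are handled, moved with the set: 14 of 15 were lower in MMTV-neu, with a median of -2.13, and Dusp1 fell by 3.71. The same list had medians of -1.69 in the 1:1 erbB2-positive, -0.58 in the 1:50 erbB2-positive, -0.97 in the 1:1 erbB2-negative and -0.45 in the 1:50 erbB2-negative fraction against Comma-D. Its part in the results was not tested.

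Of all genes, 25.8% were called higher and 57.6% lower in the 1:50 erbB2-positive fraction than in MMTV-neu. This fraction was higher for 14 of 24 other NRF2 target enzymes and lower for 5. It was higher for 6 and lower for 5 of 17 other transferases, higher for 6 and lower for 4 of 13 genes of glutathione supply, and higher for 12 and lower for 6 of 21 genes of peroxide removal. Nfe2l2 was higher by 2.35 (SE 0.16). Against Comma-D, 6 of the 17 other transferases were called lower in this fraction, where 4.54% of all genes were, Mgst1 (-1.27), Gstt1 (-1.16), Gstm2 (-1.01), Gstm5 and Gstt3 among them, beside Gstm1 and Gstp1 of the set. Members of the mu class are close in sequence, and whether their probe sets read one another was not tested. Nfe2l2 was lower by 0.68 (adjusted p = 0.019), and 2 of 24 other target enzymes were called lower, Aldh3a1 and Ephx1.

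**Figure D4:**
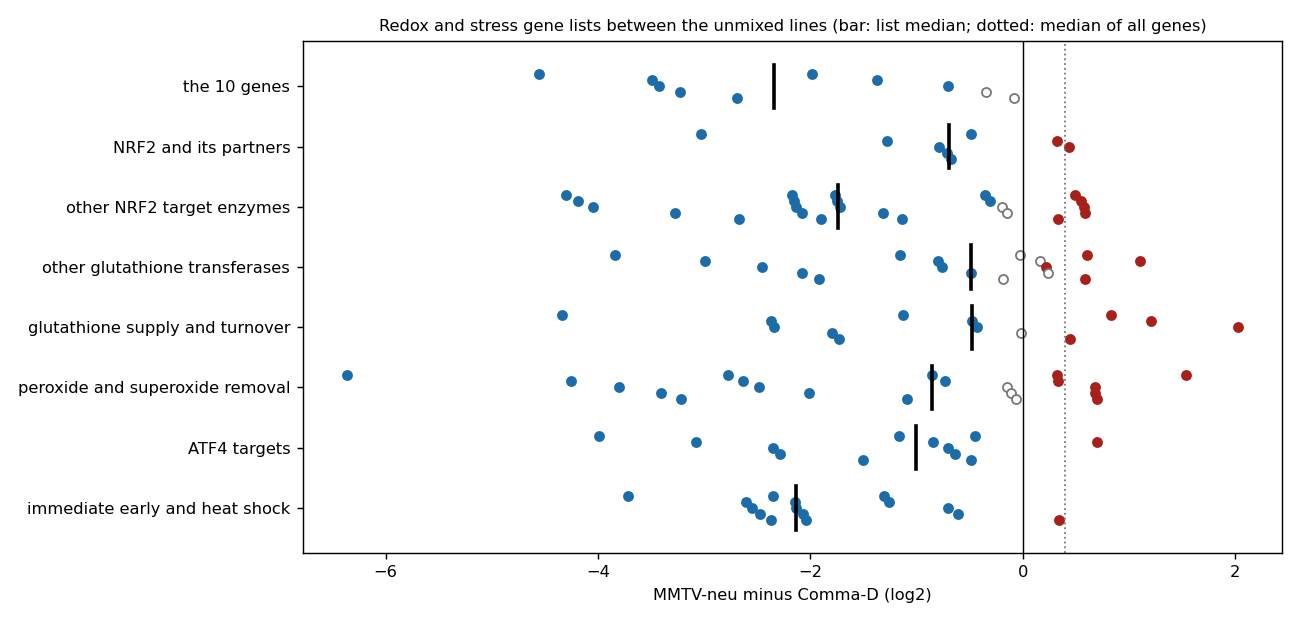
Difference between MMTV-neu and Comma-D in log2 units (horizontal axis) for each gene of the set and of 7 related lists, 1 point per gene; filled points passed an adjusted p of 0.05, thick bars are list medians and the dotted line is the median of all genes. The set has a median of -2.34 and the immediate early and heat shock list one of -2.13, against 0.40 over all genes.

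Many genes share the pattern of the 4 members with the widest range. Over the 18 arrays the genes most like Gstp1 were Vps28 (Pearson's r = 0.994), Tmem106b (0.994) and Zwint (0.993), and 2829 of 9692 genes at or above the median level had an r over 0.9 with it. For Gsta4 they were Ctnnb1 (0.992), Impact and Atp6v1b2, for Hmox1 Ppid (0.994), Entpd4 and Zcchc24, and for Gstm1 Tle5 (0.980), Ccnd3 and Tpi1. The points share the 6 groups and the scaling of the arrays, so these values are descriptions.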

How the data were processed

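RNA of 18 samples, 6 groups of 3, was measured on whole-transcript mouse arrays. The authors deposited log2 expression values per probe set. RMA, R 3.1.2 and limma are named, without role or order, per the submitters' processing notes; the genome build of the probe sets is not given in the sources used here. RMA-type values compress differences of dim probe sets, and the number of arrays limits the precision. Of 35556 probe sets, 23410 were annotated, 21789 to 1 gene and 1621 to several, and 12146 were unnamed here; 21698 single-gene probe sets matched the RefSeq table by gene ID. Each of 19938 genes was read from its single-gene probe set with the highest mean.

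All 18 arrays entered 1 limma fit (limma 3.58.1, R 4.3.3; 12 residual degrees of freedom) on the deposited log2 values, with Benjamini-Hochberg adjustment over all genes and a threshold of 0.05. All adjusted p-values come from it unless another setting is named, and intervals cover 95%. The script was tested on simulated data. Members of the set, gene lists and tests were chosen with earlier results of these data known. From each list up to 5 called genes with the largest difference are named, and for likeness the 3 genes with the highest r to each of the 4 members with the widest range. Alternatives were averaging the probe sets of each gene, leaving out the lowest 40% of genes, centring on 9 measured of 11 reference genes, quantile normalization, trended robust priors, array weights, fits of the compared groups alone, a replicate block, and leaving out each array. The comparison of the 1:50 erbB2-positive with the 1:1 erbB2-negative fraction, and the block in 12 arrays, were added after seeing the data.

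Within groups, arrays correlated at 0.959 to 0.997, and no pair held identical values. Equal replicate numbers deviated together (every correlation over 0.1) in 5 of 15 pairs of groups, all among the co-culture fractions, with correlations from -0.261 to 0.849 over all pairs, so the pairing comes from the data, not from the labels.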

Additional observations from a re-analysis of the deposited data

Results flagged for a closer look

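The difference between the 1:50 and 1:1 ratios was not the same in the erbB2-positive and erbB2-negative fractions for 2 genes, as tested by the interaction term of the limma fit. For Gstp1 the interaction was 1.62 log2 units (SE 0.30, adjusted p = 0.0103), and for Gclm it was 1.25 (SE 0.19, adjusted p = 0.00359). In both genes the 1:50 fraction was higher, by more among erbB2-positive cells.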

How the results depend on the processing

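Of 130 pairs of gene and comparison, 65 were called. Their alternatives that left out no array kept direction and call in 481 cases, lost the call in 53 and reversed in 9, and those that left out 1 array kept it in 353 and lost it in 49. Pairs not called stayed so in 493 and 427 cases, became called in 56 and 11, and reversed in 8 and none; 54 changes of sign with no call on either side are counted as kept. The cause of a change was not tested.

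Counts of genes called moved as follows. Array weights, whose estimate stopped before convergence, gave 4 in place of 0 for the 1:50 erbB2-negative fraction against Comma-D, 7 in place of 3 for the 1:50 erbB2-positive fraction against Comma-D, 7 in place of 0 within the 1:50 co-culture, 8 in place of 2 for the interaction and 9 in place of 0 for the 1:50 erbB2-positive against the 1:1 erbB2-negative fraction. A fit of the compared groups alone gave 2 in place of 0, 0 in place of 6 and 1 in place of 2 for the 1:50 erbB2-negative fraction against Comma-D, between the erbB2-negative fractions and for the interaction. Centring and quantile normalization each gave 3 in place of 8 (1:1 erbB2-negative against Comma-D), 1 in place of 3 (1:50 erbB2-positive against Comma-D) and 1 in place of 6 (between the erbB2-negative fractions), and centring gave 0 interactions. The replicate block gave 1 call in place of 0, in 18 or in 12 arrays, for the 1:50 erbB2-positive against the 1:1 erbB2-negative fraction (Gsta4, adjusted p = 0.0231 and 0.027). In 18 arrays it also called Txnrd1 in the 1:50 erbB2-positive fraction against Comma-D (adjusted p = 0.0497) and Gstm1 in the interaction (adjusted p = 0.0359), and the calls it moved in 12 arrays are given with the results; it also raised the F test's count from 9 to 10, and changed no other count in 18 arrays.

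Leaving out 1 array gave 5 to 8 calls for the 1:1 erbB2-negative fraction against Comma-D, 1 to 3 for the 1:50 erbB2-positive fraction against Comma-D, 3 to 5 for the 1:1 erbB2-positive fraction against MMTV-neu, 2 to 6 between the erbB2-negative fractions, 2 to 6 for the interaction and 0 to 1 for the 1:50 erbB2-positive against the 1:1 erbB2-negative fraction.

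Centring on reference genes reversed MMTV-neu against Comma-D for Nqo1 (1.41), Gclc (0.38), Srxn1 (1.05) and Slc7a11 (1.67; 0.48 by quantile normalization), the 1:1 erbB2-positive fraction against Comma-D for Nqo1 (0.59), Srxn1 (0.19) and Slc7a11 (0.44), and against MMTV-neu for Gclm (-0.14) and Txnrd1 (-0.20). It reversed the 1:50 erbB2-positive fraction against MMTV-neu for Gclc (-0.19), Txnrd1 (-0.084) and Srxn1 (-1.25) and against the 1:1 fraction for Srxn1 (-0.40) and Slc7a11 (-0.65), and the 1:1 fractions for Slc7a11 (0.56). Array weights reversed the 1:50 erbB2-positive against the 1:1 erbB2-negative fraction for Slc7a11 (-0.34). Signal under the array median limits Gstp1 (3 of 3 arrays), Txnrd1 and Nqo1 (2 of 3) in MMTV-neu, and Nqo1 in the 1:1 erbB2-positive fraction (3 of 3).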
